A study of Homo sapiens with 18 samples.

Results

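The comparison asked for which genes 3 days of phorbol 12-myristate 13-acetate (PMA) acted differently in HL60 and in THP-1 cells. The difference of effects was the change with PMA in HL60 minus the change with PMA in THP-1, and it used 12 of the 18 arrays of the series, chosen by sample title. HL60 is a promyelocytic and THP-1 a monocytic human leukaemia line, and each was cultured with 30 nM PMA or with the vehicle dimethyl sulfoxide (DMSO). The groups were HL60 PMA, HL60 DMSO, THP-1 PMA and THP-1 DMSO, with 3 arrays each. The labels number the arrays but do not say that they came from separate cultures, so p-values reflect the variation among these arrays alone. RNA was hybridised to Affymetrix human exon arrays, and a gene's value was the mean log2 value of its probe sets, for the 16267 genes with at least 3 probe sets carrying a single gene symbol. All changes are in log2 units, in which 1 unit is 2-fold, and an error after ± is the SE of the fit unless SD is named.

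PMA mimics diacylglycerol and activates protein kinase C. In myeloid leukaemia lines it stops division and drives adhesion and macrophage-like differentiation through AP-1 and EGR factors. HL60 cells carry the azurophilic granule programme of promyelocytes, whereas THP-1 cells carry a KMT2A fusion and are placed further along the monocyte path.

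The lines were checked against defining markers. The granule peroxidase MPO averaged 12.60 in HL60 DMSO and 5.87 in THP-1 DMSO, and the homeobox factor HOXA9 averaged 4.82 in HL60 DMSO and 8.29 in THP-1 DMSO. All 7 HL60 markers lay above the floor in HL60 DMSO and also in THP-1 DMSO, where the floor is 5.13, the 30th percentile of probe-set means, and the list averaged 9.91 in HL60 DMSO and 9.93 in THP-1 DMSO. Of 9 THP-1 markers, 7 lay above it in HL60 DMSO and 8 in THP-1 DMSO, where MEIS1, a HOX cofactor, lay below at 3.90. The lists as a whole therefore did not tell the lines apart, whereas MPO and HOXA9 did. Since MPO was far higher in HL60 DMSO while the list means were alike, the other HL60 markers averaged higher in THP-1 DMSO. MPO thus did not stand for its list. The lipopolysaccharide co-receptor CD14, on the THP-1 list, averaged 7.91 in HL60 DMSO and 6.39 in THP-1 DMSO, against the order its listing implies. Between 39 and 116 values were exactly tied in any pair of arrays of the same line, against at most 5 in pairs from different lines. The lines therefore appear to have been normalized separately, and levels set across lines carry that limit, whereas an offset common to a line cancels in the difference of effects. Array medians ran from 6.43 to 6.71.

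The widest opposite changes were those of CD14 and FBP1, a gluconeogenic enzyme, and their promoters are shown as the regulatory sequence of the gene leading each direction. They are RefSeq windows on GRCh38.p14, from 250 bases before to 50 after the gene start, read on the gene's strand. CD14 lies at chr5:140633126-140633425 and FBP1 at chr9:94639469-94639768, both on the minus strand. Capitals mark matches on either strand to the AP-1 motif TGACTCA, the PU.1 core GAGGAA and the Sp1 core GGGCGG.
CD14: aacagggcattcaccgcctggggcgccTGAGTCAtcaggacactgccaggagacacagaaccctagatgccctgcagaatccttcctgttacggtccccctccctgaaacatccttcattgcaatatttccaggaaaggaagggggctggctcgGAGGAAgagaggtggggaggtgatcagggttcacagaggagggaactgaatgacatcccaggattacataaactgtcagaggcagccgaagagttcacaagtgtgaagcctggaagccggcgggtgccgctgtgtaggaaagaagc
FBP1: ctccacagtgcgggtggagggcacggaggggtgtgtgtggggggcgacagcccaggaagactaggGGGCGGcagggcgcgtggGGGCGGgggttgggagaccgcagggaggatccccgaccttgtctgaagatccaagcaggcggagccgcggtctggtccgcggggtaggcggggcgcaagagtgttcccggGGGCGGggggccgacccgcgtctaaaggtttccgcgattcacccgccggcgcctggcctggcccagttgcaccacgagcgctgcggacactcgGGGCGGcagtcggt
The CD14 window held 1 AP-1 and 1 PU.1 core match and no Sp1 core match. The FBP1 window held 4 Sp1 core matches and neither of the others. Of 35116 promoter windows, 4.95% held the AP-1 motif, 27.9% the PU.1 core and 45.0% the Sp1 core. Among the 25 genes with opposite changes, 19 matched the RefSeq table, with 27 windows. Of these windows, 3 held the AP-1 motif, 12 the PU.1 core and 14 the Sp1 core. Counted by gene, where a match in any window sufficed, the numbers were 3, 10 and 11 of 19, which are not on the scale of the window shares. These matches describe letters in the windows.

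The difference of effects passed limma's test, two-sided with a Benjamini-Hochberg adjusted p under 0.05, in 2052 of 16267 genes (12.6%). It was above 0 in 1350 genes (8.3%) and below 0 in 702 (4.32%). By the same test PMA changed 4855 genes (29.8%) in HL60, of which 2824 rose (17.4%) and 2031 fell (12.5%). It changed 4924 (30.3%) in THP-1, of which 2243 rose (13.8%) and 2681 fell (16.5%). With the replicate number as a block, 2334 differences lay above 0 and 1255 below. The share above 0 among called genes was 65.8% in the deposited values, against 55.7% after quantile normalization of the 12 arrays, 55.6% after it within each line and 53.3% with arrays centred. The median difference over all genes moved with it, and was 0.06 as deposited, -0.04 after either quantile normalization and -0.07 with arrays centred.

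Called differences were sorted by what each line did, where a move was a called change of at least 1 log2 unit. PMA raised 15 genes in HL60 and lowered them in THP-1 (0.0922%), and lowered 10 in HL60 while raising them in THP-1 (0.0615%). A further 347 genes were gained in HL60 alone (2.13%), 199 were gained in THP-1 alone (1.22%), 90 were lost in HL60 alone (0.553%) and 183 were lost in THP-1 alone (1.12%). Here alone means that the other line's change was not called, which does not show that it was 0. Another 239 genes (1.47%) moved the same way by different amounts, and the remaining 969 (5.96%) fell short of these sizes in some respect. Without the size minimum, 140 genes changed in opposite directions, 95 upward and 45 downward in HL60. With arrays centred on their median, the genes gained alone numbered 295 in HL60 and 267 in THP-1, those lost alone 134 in HL60 and 144 in THP-1, and those of opposite direction 12 upward and 14 downward in HL60, so the imbalance between the lines in these counts depended on the scaling. In bulk RNA, fewer cells with a transcript and less transcript per cell cannot be told apart.

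Levels under the floor lie close to background, so a change to or from such a level has no exact size. With array values under the floor set to it, an alternative chosen after seeing the data, all 116 named differences kept their sign and 14 shrank by over 1.5 times. Genes named for moving in opposite directions, in a line alone or the same way were required to have PMA arrays clear of DMSO arrays in each line that moved. Where non-overlap is stated for them in such a line, it describes the choice and is no separate evidence. Genes named only from lists, by the size of a called difference, and MPO, CDKN1A, ITGAM, MYC and SPP1 did not face this requirement.

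**Figure D1:**
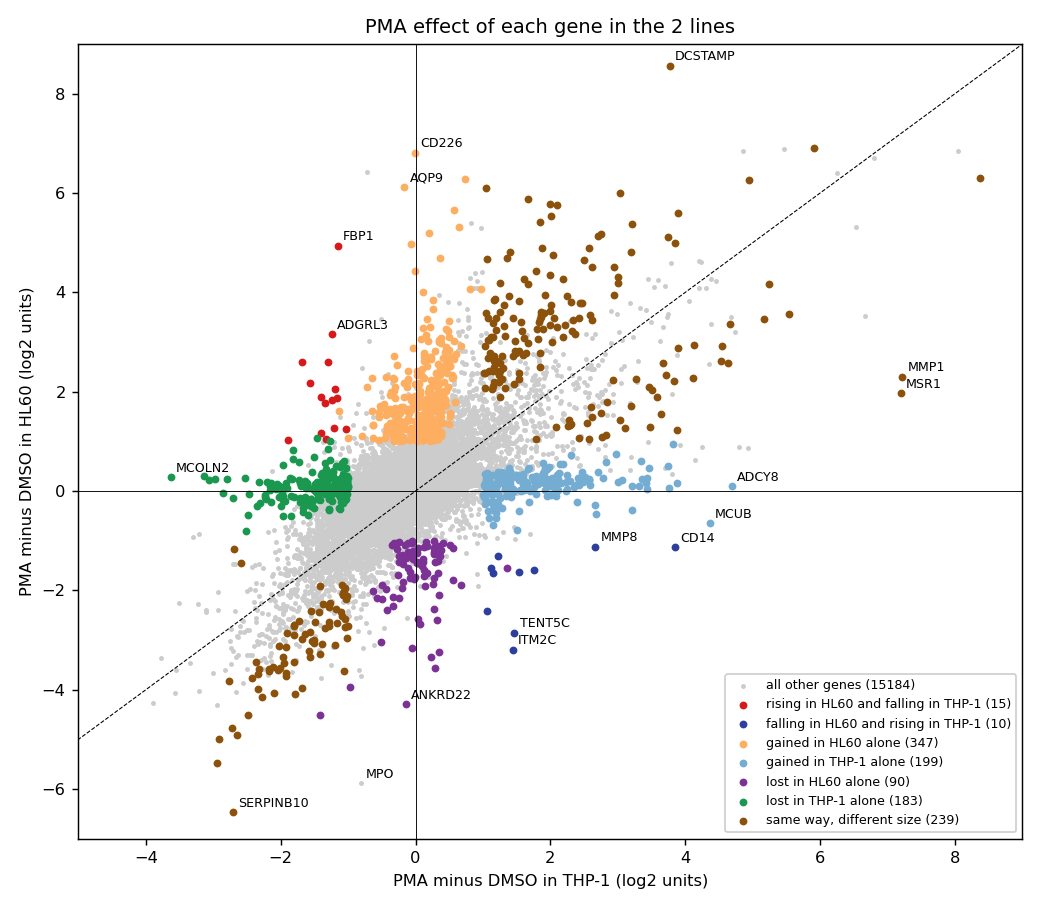
Each point is a gene, with the PMA effect in HL60 on the vertical axis and that in THP-1 on the horizontal axis, both in log2 units. Colours mark the classes of called differences, and the dashed line marks equal effects. FBP1 and ADGRL3 lie upper left, CD14 and ITM2C lower right, and CD226 on the vertical axis at 6.81.

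Among the genes raised in HL60 and lowered in THP-1, FBP1 stood first. Its arrays read 11.60, 11.44 and 10.95 in HL60 PMA, against 6.77, 6.35 and 6.05 in HL60 DMSO. In THP-1 they read 6.65, 6.05 and 7.20 with PMA, against 7.83, 7.75 and 7.78 with DMSO. No PMA array overlapped a DMSO array of its line, so a gene that began lower in HL60 ended well above THP-1. The effects were 4.94 ± 0.28 in HL60 and -1.16 ± 0.28 in THP-1, and they differed by 6.10 ± 0.39 (limma adjusted p = 5.2e-06). Without THP-1 PMA 2 the THP-1 decrease was -0.86, short of the size minimum, with an adjusted p of 0.0302 (limma).

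ADGRL3, an adhesion G protein-coupled receptor of the latrophilin family, and DHRS9, a short-chain dehydrogenase active on retinol and steroids, moved from opposite ends towards each other. ADGRL3 read 7.25, 7.24 and 7.38 in HL60 PMA, against 4.09, 4.13 and 4.18 in HL60 DMSO. It read 6.83, 7.08 and 7.70 in THP-1 PMA, against 8.29, 8.46 and 8.60 in THP-1 DMSO. The lines nearly met with PMA, at means of 7.29 in HL60 and 7.20 in THP-1, against 4.13 in HL60 DMSO and 8.45 in THP-1 DMSO (difference of effects 4.40 ± 0.27, limma adjusted p = 3.35e-06). DHRS9 averaged 6.34 in HL60 PMA and 3.75 in HL60 DMSO, and 6.04 in THP-1 PMA and 7.72 in THP-1 DMSO (4.27 ± 0.33, limma adjusted p = 1.67e-05). Neither gene's PMA arrays overlapped the DMSO arrays of the same line.

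SERPINB2, plasminogen activator inhibitor 2, began higher in HL60 and the lines moved apart. It read 11.55, 11.28 and 10.25 in HL60 PMA, against 8.73, 7.94 and 8.61 in HL60 DMSO, and 5.83, 6.07 and 5.28 in THP-1 PMA, against 7.32, 7.04 and 6.70 in THP-1 DMSO. The difference of effects was 3.89 ± 0.49 (limma adjusted p = 0.00044). Its THP-1 decrease of -1.29 was -1.14 without THP-1 DMSO 1 (limma adjusted p = 0.0612) and -1.07 without THP-1 PMA 3 (limma adjusted p = 0.0548), and with the median of the probe sets it was -0.91 (limma adjusted p = 0.0653).

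LILRB4, an inhibitory immunoglobulin-like receptor of myeloid cells, rose by 2.06 ± 0.26 in HL60 and fell by 1.19 ± 0.26 in THP-1. SEPTIN3, a filament-forming GTPase, rose by 1.83 ± 0.22 in HL60 and fell by 1.24 ± 0.22 in THP-1. PIR, the iron-binding nuclear protein pirin, rose by 1.76 ± 0.33 in HL60 and fell by 1.34 ± 0.33 in THP-1. For LILRB4 and SEPTIN3 the HL60 PMA means, 8.21 and 7.10, came close to the THP-1 DMSO means of 8.27 and 6.73. For PIR the HL60 PMA mean of 6.27 stayed under the THP-1 DMSO mean of 7.07.

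The THP-1 side was less firm for CTSV, a lysosomal cysteine protease, CA2, a carbonic anhydrase, and FBXO15, an F-box protein. Their differences of effects were 3.74 ± 0.59, 3.30 ± 0.58 and 3.04 ± 0.46 (limma adjusted p = 0.00184, 0.00357 and 0.00144). CTSV fell by 1.56 ± 0.42 in THP-1 (limma adjusted p = 0.0154), and this call was lost without THP-1 DMSO 1, THP-1 DMSO 2 or THP-1 PMA 3 (limma adjusted p = 0.0607, 0.069 and 0.0555). CA2 fell by 1.40 ± 0.41 there (limma adjusted p = 0.0255), and the call was lost without THP-1 DMSO 1, DMSO 2, PMA 2 or PMA 3 (limma adjusted p = 0.0899, 0.101, 0.0502 and 0.0809). FBXO15 fell by 1.17 ± 0.33 there (limma adjusted p = 0.0191), and the call was lost without the same 4 arrays (limma adjusted p = 0.0747, 0.0858, 0.0531 and 0.0533). With values under the floor set to it, the difference was 2.46 for CTSV and 0.32 for FBXO15. The other members were FCGR2A, ZNF542P, CDR2, MOXD1 and HGD. FCGR2A, an activating receptor for immunoglobulin G, rose by 1.03 in HL60 and fell by 1.90 in THP-1.

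CD14 led the genes lowered in HL60 and raised in THP-1. It read 6.80, 6.85 and 6.67 in HL60 PMA, against 8.12, 7.46 and 8.13 in HL60 DMSO. It read 10.25, 10.00 and 10.45 in THP-1 PMA, against 6.48, 6.20 and 6.50 in THP-1 DMSO. The order of the lines was thus turned round: CD14 was higher in HL60 with DMSO and higher in THP-1 with PMA. The effects were -1.13 ± 0.19 and 3.84 ± 0.19, and differed by -4.98 ± 0.27 (limma adjusted p = 1.63e-06, 4 probe sets).

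ITM2C, an integral membrane protein, and TENT5C, a non-canonical poly(A) polymerase, fell by more than CD14 in HL60 and rose in THP-1. ITM2C read 6.34, 6.52 and 6.60 in HL60 PMA, against 9.66, 10.09 and 9.31 in HL60 DMSO, and 11.66, 11.40 and 11.58 in THP-1 PMA, against 10.35, 10.08 and 9.88 in THP-1 DMSO. The lines began close together and ended far apart (-4.64 ± 0.27, limma adjusted p = 3.01e-06). TENT5C averaged 5.72 in HL60 PMA and 8.57 in HL60 DMSO, and 6.59 in THP-1 PMA and 5.13 in THP-1 DMSO (-4.32 ± 0.33, limma adjusted p = 1.65e-05).

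Several of these genes serve signalling or the cytoskeleton of blood cells. CORO1A, an actin-binding coronin of leukocytes, averaged 9.30 in HL60 PMA and 10.61 in HL60 DMSO, and 11.12 in THP-1 PMA and 9.90 in THP-1 DMSO (-2.53 ± 0.20, limma adjusted p = 1.67e-05). GNA15, a G protein alpha subunit of haematopoietic cells, changed by -1.66 ± 0.21 in HL60 and 1.16 ± 0.21 in THP-1. GYPC, the membrane sialoglycoprotein glycophorin C, changed by -1.62 ± 0.29 in HL60 and 1.53 ± 0.29 in THP-1. NT5DC2 changed by -1.59 ± 0.16 in HL60 and 1.76 ± 0.16 in THP-1. The THP-1 PMA mean of CORO1A was thus the highest of its 4 group means, and its HL60 PMA mean the lowest.

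For MMP8, TESC and TRAF3IP3 the call in one line was less firm. MMP8, neutrophil collagenase, averaged 2.76 in HL60 PMA and 3.88 in HL60 DMSO, both under the floor, and 5.20 in THP-1 PMA and 2.54 in THP-1 DMSO (-3.78 ± 0.47, limma adjusted p = 0.000404). Its HL60 decrease was lost without HL60 DMSO 1, DMSO 2, PMA 1, PMA 2 or PMA 3 (limma adjusted p = 0.103, 0.0955, 0.0606, 0.0681 and 0.0542), and also in the fit of all 18 arrays (limma adjusted p = 0.158). With values under the floor set to it, the MMP8 difference was -0.23. TESC, a calcium-binding protein, fell by 2.42 ± 0.31 in HL60, and its THP-1 increase of 1.07 ± 0.31 was lost without THP-1 DMSO 3, PMA 1 or PMA 2 (limma adjusted p = 0.0749, 0.0991 and 0.071). TRAF3IP3, a TRAF3-interacting protein, changed by -1.55 ± 0.27 in HL60 and 1.12 ± 0.27 in THP-1. The THP-1 change of TRAF3IP3 was 0.94 without THP-1 DMSO 3 and 0.99 without THP-1 PMA 2, still called but under the size minimum.

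**Figure D2:**
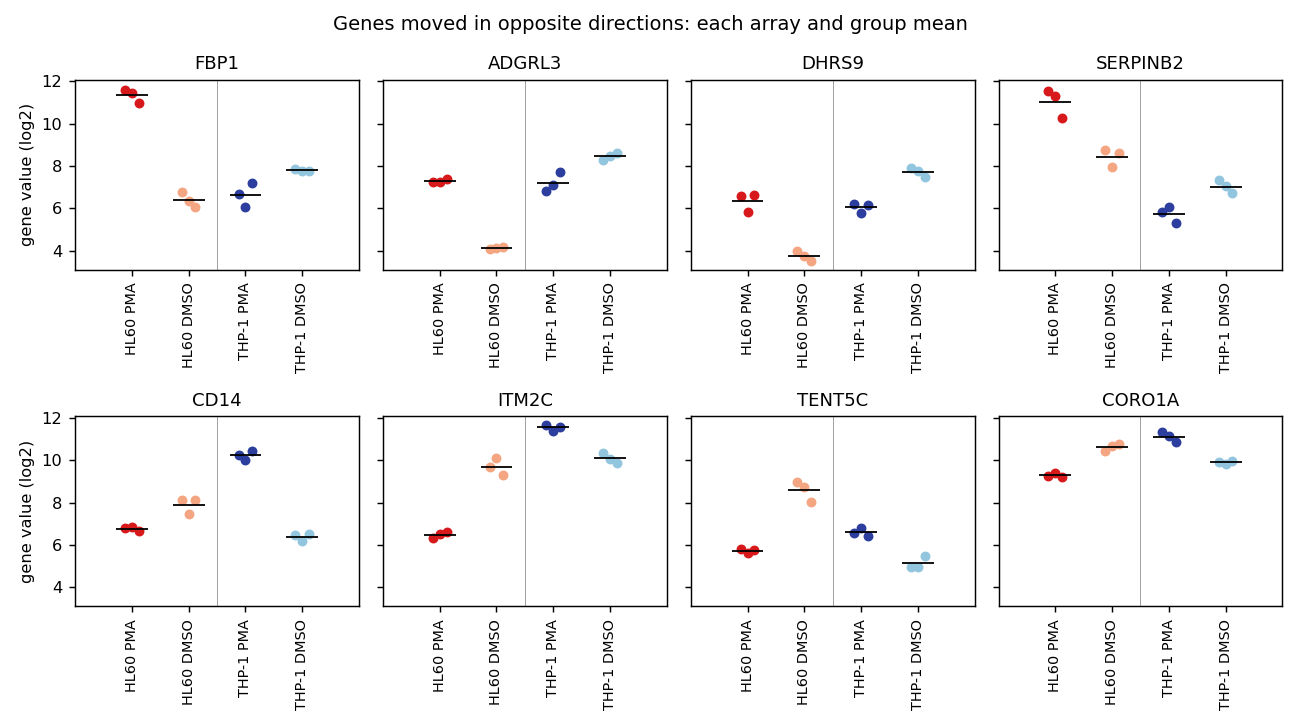
Points are single arrays and bars are group means of 8 genes moved in opposite directions, on the deposited log2 scale, with the HL60 groups left of the THP-1 groups. By the choice of genes, in each panel the PMA arrays of a line lie clear of its DMSO arrays, on opposite sides in the 2 lines.

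Starting levels differed between the classes. The THP-1 DMSO level was above the HL60 DMSO level in 13 of the 15 genes raised in HL60 and lowered in THP-1, and in 3 of the 10 genes with the reverse pattern, against 7381 of all 16267 genes. The gap between the lines was smaller with PMA than with DMSO in 9 of the 15 (60%) and in 3 of the 10 (30%), against 46.0% of all genes. The DMSO level and the PMA effect share the DMSO arrays, so these counts are descriptions without a test. The classes were also picked by their moves. That choice itself favours a wider gap after a gain in a line alone, and a higher start in a line before a loss there. The gap and start counts below describe the choice and are no separate evidence.

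Among genes gained in HL60 alone, the gap between the lines grew in 261 of the 347, against 8785 of all 16267 genes. Its median size in the class was 1.34 with PMA and 0.45 with DMSO. In HL60 DMSO 234 already lay above the floor, against 11418 of all 16267 genes, and 104 crossed it upward with PMA, against 806. In THP-1 DMSO 255 lay above it, against 11489 of all genes. In 30 genes the THP-1 DMSO mean was at or above what HL60 reached with PMA, against 6646 of all genes.

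CD226, an adhesion receptor known from T and NK cells, stood first among them by the deposited values. It read 10.68, 10.88 and 10.31 in HL60 PMA, against 3.77, 3.77 and 3.90 in HL60 DMSO, and 3.18, 3.58 and 3.20 in THP-1 PMA, against 3.10, 3.42 and 3.45 in THP-1 DMSO. CD226 thus rose far above the floor in HL60 while all 6 THP-1 arrays stayed under it (6.82 ± 0.24, limma adjusted p = 1.24e-07). Of 16 other T and NK cell markers 2 rose and 1 fell in HL60. The mean over the list was 4.98 to 5.05 in HL60 PMA arrays and 4.88 to 5.02 in HL60 DMSO arrays. The only called difference of effects among the 16 was downward, against that of CD226. It was that of GNLY (-1.54 ± 0.36), and it was lost with the median of the probe sets (limma adjusted p = 0.133). AQP9, a channel for water and glycerol measured by 3 probe sets, averaged 11.03 in HL60 PMA and 4.92 in HL60 DMSO, and 3.07 in THP-1 PMA and 3.23 in THP-1 DMSO (6.28 ± 0.38, limma adjusted p = 3.33e-06). With values under the floor set to it, the difference was 5.49 for CD226 and 5.74 for AQP9, which then stood first.

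The chemokines CCL22 and CCL1 followed the same pattern. CCL22 averaged 10.34 in HL60 PMA and 5.37 in HL60 DMSO, and 5.47 in THP-1 PMA and 5.53 in THP-1 DMSO (5.04 ± 0.40, limma adjusted p = 2.05e-05). CCL1 averaged 9.70 in HL60 PMA and 4.51 in HL60 DMSO, and 4.30 in THP-1 PMA and 4.10 in THP-1 DMSO (4.99 ± 0.37, limma adjusted p = 1.52e-05). SPINK1, a trypsin inhibitor, was uneven, at 11.14, 7.91 and 8.15 in HL60 PMA against 3.13, 3.42 and 3.72 in HL60 DMSO, and averaged 3.61 in THP-1 PMA and 3.03 in THP-1 DMSO (5.07 ± 0.94, limma adjusted p = 0.00448). MMP7, the protease matrilysin, rose by 6.27 ± 0.30 in HL60, and SLAMF6, a homophilic lymphocyte receptor, by 5.33 ± 0.26. Their THP-1 changes of 0.73 and 0.64 were not called (limma adjusted p = 0.0903 and 0.0889), but were with the replicate number as a block (limma adjusted p = 0.0336 and 0.0445). The MMP7 change in THP-1 was also called without HL60 PMA 1 or HL60 PMA 2 (limma adjusted p = 0.0326 and 0.0107). With only probe sets above the floor it was 1.27 (limma adjusted p = 0.00242), so MMP7 then moved the same way in both lines. The SLAMF6 change in THP-1 was also called with arrays centred (limma adjusted p = 0.0269). It was called after quantile normalization within each line too (limma adjusted p = 0.0488).

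Genes gained in THP-1 alone were divided in their start. Both DMSO means lay under the floor in 81 of the 199 and above it in 85, and 75 crossed it upward in THP-1. Over all 16267 genes these counts were 4179, 10819 and 655. The gap between the lines grew in 172, against 8785 of all 16267 genes, to a median of 1.58 with PMA against 0.31 with DMSO. ADCY8, an adenylyl cyclase, read 8.61, 8.70 and 8.57 in THP-1 PMA against 4.13, 3.80 and 3.90 in THP-1 DMSO, while HL60 averaged 4.11 with PMA and 4.01 with DMSO (-4.59 ± 0.21, limma adjusted p = 4.54e-07). FERMT2, the integrin activator kindlin-2, rose by 3.88 ± 0.16 in THP-1, PLK2, a polo-like kinase, by 3.75 ± 0.24, DYSF, the membrane repair protein dysferlin, by 3.21 ± 0.25 and CHODL, a C-type lectin-like protein, by 3.43 ± 0.20. Their HL60 changes lay between -0.38 and 0.17, and none was called.

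MCUB, an inhibitory subunit of the mitochondrial calcium uniporter, stood first in that class by the deposited values. It averaged 3.90 in HL60 PMA and 4.55 in HL60 DMSO, and 8.51 in THP-1 PMA and 4.15 in THP-1 DMSO (-5.01 ± 0.59, limma adjusted p = 0.000308), a difference of -3.38 with values under the floor set to it. With the replicate number as a block its HL60 change of -0.65 was called as well (limma adjusted p = 0.0108), short of the size minimum. Both HL60 means of MCUB lay under the floor. TRIM2, a ubiquitin ligase, rose by 3.75 ± 0.20 in THP-1. Its HL60 change of 0.50 was called with the block (limma adjusted p = 0.0391) and without THP-1 PMA 1 or THP-1 PMA 2 (limma adjusted p = 0.0349 and 0.039). With the median of the probe sets that change was 1.00 (limma adjusted p = 0.0154), and with only probe sets above the floor 0.62 (limma adjusted p = 0.0284).

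Genes lost in HL60 alone mostly began above the floor in both lines, as did most genes. Both DMSO means lay above it in 70 of the 90 and that of HL60 alone in 17, against 10819 and 599 of all 16267 genes. The HL60 DMSO level was the higher in 71, against 8886 of all 16267 genes, and 20 crossed the floor downward, against 423. ANKRD22, an ankyrin repeat protein, read 3.03, 3.11 and 3.09 in HL60 PMA, against 7.45, 7.15 and 7.50 in HL60 DMSO, and averaged 2.48 in THP-1 PMA and 2.62 in THP-1 DMSO (-4.14 ± 0.19, limma adjusted p = 5.69e-07), and the difference was -2.23 with values under the floor set to it. EPX, eosinophil peroxidase, averaged 5.63 in HL60 PMA and 9.19 in HL60 DMSO, and 5.46 in THP-1 PMA and 5.16 in THP-1 DMSO (-3.86 ± 0.70, limma adjusted p = 0.00412). After PMA both genes read in HL60 near what THP-1 had throughout.

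The class also held receptors. CNR2, a cannabinoid receptor, fell by 3.24 ± 0.23 in HL60, GPR183, a receptor for oxysterols, by 3.34 ± 0.51 and HSH2D, an SH2 adaptor of blood cells, by 3.17 ± 0.14. PCLAF, which binds PCNA in DNA synthesis, averaged 5.26 in HL60 PMA and 9.76 in HL60 DMSO, and 8.31 in THP-1 PMA and 9.72 in THP-1 DMSO (-3.08 ± 0.78, limma adjusted p = 0.0235). The PCLAF difference was lost without HL60 PMA 2, THP-1 PMA 1 or THP-1 PMA 2 (limma adjusted p = 0.063, 0.0559 and 0.0588). STMN1, which destabilises microtubules, averaged 6.04 in HL60 PMA and 9.97 in HL60 DMSO, and 9.23 in THP-1 PMA and 10.20 in THP-1 DMSO (-2.97 ± 0.56, limma adjusted p = 0.00487). Both also fell in THP-1 with the replicate number as a block, PCLAF by 1.41 (limma adjusted p = 0.00195) and STMN1 by 0.96 (limma adjusted p = 0.000675), and in both the THP-1 decrease was called without THP-1 DMSO 3 (limma adjusted p = 0.0197 and 0.0223). That of PCLAF was called without HL60 DMSO 1 too (limma adjusted p = 0.0409).

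Genes lost in THP-1 alone mostly began higher there. THP-1 DMSO was the higher in 166 of the 183, against 7381 of all 16267 genes. In 77 the THP-1 DMSO mean alone lay above the floor, against 670 of all genes, and 62 crossed it downward with PMA, against 487. The gap shrank in 127 (69.4%), against 46.0% of all genes, to a median of 0.89 with PMA against 1.70 with DMSO. The size of this class moved between 113 genes without THP-1 DMSO 2 and 267 without THP-1 DMSO 3.

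MCOLN2, an endolysosomal cation channel, read 3.98, 4.23 and 6.27 in THP-1 PMA, against 8.66, 8.64 and 8.07 in THP-1 DMSO, while HL60 averaged 3.09 with PMA and 2.81 with DMSO (3.91 ± 0.66, limma adjusted p = 0.0028). ALDH2, mitochondrial aldehyde dehydrogenase, averaged 5.84 in HL60 PMA and 5.62 in HL60 DMSO, and 6.52 in THP-1 PMA and 9.58 in THP-1 DMSO (3.28 ± 0.43, limma adjusted p = 0.000611). In both, THP-1 PMA 3 was the highest THP-1 PMA array. MEIOB, a meiotic DNA-binding protein, fell by 3.14 ± 0.47 in THP-1, HSD11B1, which regenerates cortisol, by 2.80 ± 0.45, CRABP1, a retinoic acid binding protein, by 2.52 ± 0.23 and VLDLR, a lipoprotein receptor, by 2.97 ± 0.37. VIT, the matrix protein vitrin, was the exception in its start: the lines were alike with DMSO, at 8.03 in HL60 and 7.85 in THP-1, and apart with PMA, at 7.98 in HL60 and 5.00 in THP-1 (2.80 ± 0.41, limma adjusted p = 0.00124).

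**Figure D3:**
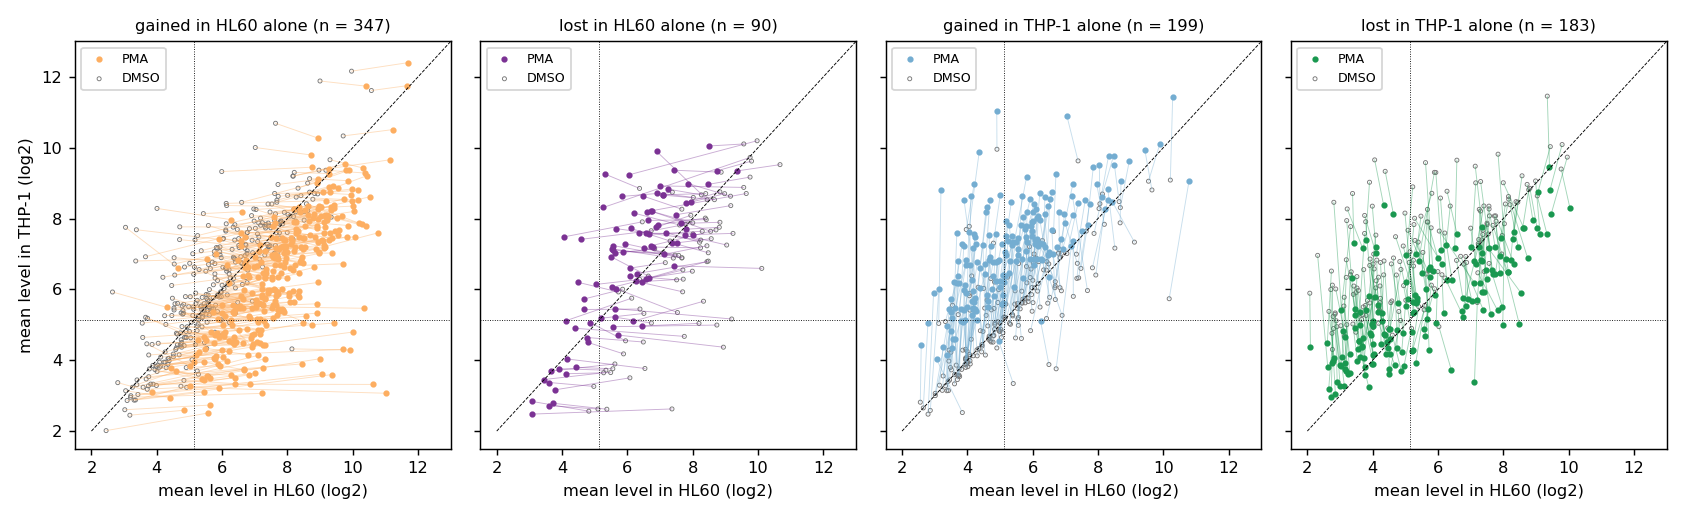
Each line joins the DMSO mean (open circle) of a gene to its PMA mean (filled circle), with the HL60 level across and the THP-1 level up, in log2 units. Dotted lines mark the floor of 5.13 and the dashed line equal levels. The gap from the dashed line grew in 261 of 347 genes gained in HL60 alone and in 172 of 199 gained in THP-1 alone. It shrank in 127 of 183 lost in THP-1 alone. Over all 16267 genes it grew in 8785 and shrank in 7482, and the choice of the classes favours these counts.

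Where both lines moved the same way, size could differ widely. Of 239 such genes, 165 rose in both, 123 of them more in HL60 and 42 more in THP-1, and 74 fell in both, 72 of them more in HL60 and 2 more in THP-1. DCSTAMP, which cell fusion of osteoclasts and giant cells requires, rose by 8.56 ± 0.20 in HL60 and 3.77 ± 0.20 in THP-1. The growth factor CSF1 rose by 5.87 ± 0.20 in HL60 and 1.67 ± 0.20 in THP-1, and CRABP2, a retinoic acid carrier, by 6.10 ± 0.27 in HL60 and 1.05 ± 0.27 in THP-1. FCRLA, an Fc receptor-like protein known from B cells, rose by 5.78 ± 0.22 in HL60 and 2.00 ± 0.22 in THP-1. Of 9 B cell markers, FCRLA and CD79A differed upward. The CD79A call was lost on leaving out any of 9 of the 12 arrays, with adjusted p up to 0.114 (limma). It was also lost after quantile normalization of the 12 arrays (limma adjusted p = 0.0829), whereas that of FCRLA held in every setting. Without FCRLA, the mean over the other 8 was 5.04 to 5.16 in HL60 PMA arrays against 4.84 to 4.88 in HL60 DMSO arrays, and 5.07 to 5.14 in THP-1 PMA arrays against 5.01 to 5.17 in THP-1 DMSO arrays. The part of other cells in this was not tested.

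Larger in THP-1 were 2 effectors of tissue macrophages. MSR1, the scavenger receptor A, averaged 4.82 in HL60 PMA and 2.85 in HL60 DMSO, and 10.31 in THP-1 PMA and 3.12 in THP-1 DMSO (-5.22 ± 0.39, limma adjusted p = 1.52e-05). MMP1, interstitial collagenase, averaged 6.26 in HL60 PMA and 3.96 in HL60 DMSO, and 10.82 in THP-1 PMA and 3.60 in THP-1 DMSO (-4.91 ± 0.50, limma adjusted p = 0.000108). SLCO2B1, an organic anion transporter, rose by 1.23 ± 0.19 in HL60 and 3.88 ± 0.19 in THP-1. Both MSR1 and MMP1 began under the floor in both lines, and the HL60 PMA mean of MSR1 stayed under it.

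Gene lists are described by counts and medians beside 12.6% called and a median of 0.06 over all genes, and members outside the naming rule were named after their values were seen. Of 20 monocyte and macrophage surface markers, 4 differed upward (CD86, FCGR2A, ITGAX and CD4) and 7 downward, with a median of -0.08. Downward with CD14 and MSR1 was CD163, the haemoglobin scavenger receptor, at 3.72 in HL60 PMA and 3.61 in HL60 DMSO, and 6.81 in THP-1 PMA and 3.60 in THP-1 DMSO. The costimulator CD86 rose by 3.42 in HL60, and its THP-1 change was 0.49. The integrin subunit ITGAM rose in both lines, by 3.57 ± 0.28 in HL60 and 2.98 ± 0.28 in THP-1, and a difference was not called (0.59 ± 0.40, limma adjusted p = 0.466). Of 18 foam cell and scavenging genes, 7 differed upward and 1, STAB1, downward. The scavenger receptors MSR1 and CD163, both downward, were counted with the surface markers and not in this list. OLR1, a receptor for oxidised lipoprotein, rose by 4.52 ± 0.26 in HL60 and 2.62 ± 0.26 in THP-1, and PPARG, a lipid-sensing nuclear receptor, by 3.11 ± 0.17 in HL60 and 1.33 ± 0.17 in THP-1. The list's median of 0.02 turned to -0.06 after quantile normalization of the 12 arrays, and with the block 8 differed upward and 4 downward.

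Called differences of secreted signals were upward. Of 18 cytokines and interleukins, 5 differed upward (CSF1, IL1RN, IL18, IL1A and HBEGF) and none downward (limma), or 2 at an unadjusted p under 0.05. Of 18 listed chemokines, 4 differed upward (CCL22, CCL5, CXCL5 and CXCL16) and none downward (limma), or 0 at an unadjusted p under 0.05. CCL1, which also differed upward, was not on that list. With the block 5 cytokines differed upward and 2 downward, and 7 chemokines upward and 0 downward. After quantile normalization of the 12 arrays 1 cytokine differed downward, as it did without HL60 PMA 1 or HL60 PMA 2. Upward calls among cytokines numbered 3 without HL60 DMSO 2, HL60 DMSO 3 or any THP-1 array but DMSO 3, and those among chemokines 7 without HL60 PMA 3. IL1RN, the interleukin 1 receptor antagonist, averaged 11.10 in HL60 PMA and 5.34 in HL60 DMSO, and 7.58 in THP-1 PMA and 5.48 in THP-1 DMSO (3.67 ± 0.22, limma adjusted p = 3.33e-06). CCL5 rose by 4.89 ± 0.43 in HL60 and 1.88 ± 0.43 in THP-1. The call for IL18 (2.92 ± 0.80, limma adjusted p = 0.0357) was lost on leaving out any of 9 of the 12 arrays, with adjusted p up to 0.0905 (limma).

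Receptors for chemoattractants were split. Of 15, 2 differed upward (CCR1 and CMKLR1) and 4 downward (C3AR1, C5AR1, S1PR1 and FPR1), or 6 downward under the block, with a median of -0.44. C5AR1, the complement C5a receptor, averaged 7.12 in HL60 PMA and 6.19 in HL60 DMSO, and 9.27 in THP-1 PMA and 5.34 in THP-1 DMSO (-3.00 ± 0.23, limma adjusted p = 1.83e-05). CCR1, a chemokine receptor, rose by 2.81 ± 0.22 in HL60 and 0.73 ± 0.22 in THP-1. The C3AR1 call (-3.00 ± 0.77, limma adjusted p = 0.0265) was lost on leaving out any of 7 of the 12 arrays, with adjusted p up to 0.0647 (limma). CYBB, the catalytic subunit of the phagocyte oxidase, was high in HL60 from the start, at 10.79 with PMA and 10.18 with DMSO, and in THP-1 averaged 9.07 with PMA and 5.74 with DMSO (-2.73 ± 0.39, limma adjusted p = 0.00103). Under the block the HL60 change of CYBB, 0.61, was also called (limma adjusted p = 0.00375), as it was without THP-1 DMSO 3 (limma adjusted p = 0.0441).

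Sensors of microbial products differed downward where they were called. Of 18 Toll-like receptors and adaptors, 5 differed downward (CD14, TLR8, TLR2, TLR7 and TLR4) and none upward (limma), or 1 upward at an unadjusted p under 0.05, with a median of -0.25. The downward count was 3 without HL60 DMSO 1, HL60 DMSO 3, HL60 PMA 2, THP-1 DMSO 1 or THP-1 PMA 2, and 1 gene was called upward without THP-1 DMSO 3. TLR2, a receptor for bacterial lipoproteins, read 6.50, 6.40 and 6.51 in HL60 PMA, against 7.45, 7.53 and 8.02 in HL60 DMSO, and 7.98, 8.91 and 9.02 in THP-1 PMA, against 8.26, 8.46 and 8.06 in THP-1 DMSO. Its arrays were thus clear of each other in HL60 and overlapped in THP-1 (-1.57 ± 0.36, limma adjusted p = 0.0152), and with the median of the probe sets the difference was -1.06 (limma adjusted p = 0.14). The TLR8 call (-1.64 ± 0.44, limma adjusted p = 0.0316) was lost on leaving out any of 8 of the 12 arrays, with adjusted p up to 0.0748 (limma). The adaptor MYD88 rose in both lines, by 1.14 ± 0.15 in HL60 and 0.66 ± 0.15 in THP-1, and a difference was not called (limma adjusted p = 0.176).

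Interferon-stimulated genes were split, with 3 of 23 upward (IFIT3, IFIT2 and MX2) and 2 downward (IFI6 and OAS1). MX2, an antiviral GTPase, averaged 6.41 in HL60 PMA and 5.54 in HL60 DMSO, and 6.34 in THP-1 PMA and 7.35 in THP-1 DMSO, so it rose in HL60 and fell in THP-1 (1.87 ± 0.23, limma adjusted p = 0.000382). IFIT3, which binds viral RNA together with its family, rose by 2.52 ± 0.33 in HL60, and its THP-1 change of 0.17 was not called. The list median of 0.01 turned to -0.13 after quantile normalization of the 12 arrays, with 4 differing downward, and 5 did so under the block. Leaving out an array gave 1 to 3 downward, with 1 without HL60 DMSO 2, HL60 PMA 2, THP-1 DMSO 2 or THP-1 PMA 1. With values under the floor set to it, the differences of IFIT3 and IFIT2 were 0.93 and 0.18. Of 10 MHC class II presentation genes, 2 differed downward (IFI30 and CD74) and none upward (limma), or 1 upward at an unadjusted p under 0.05. Under the block, and without THP-1 DMSO 3, 1 was called upward. IFI30, a lysosomal thiol reductase, rose in both lines, by 2.62 ± 0.26 in HL60 and 4.53 ± 0.26 in THP-1. CD74, the invariant chain, averaged 7.08 in HL60 PMA and 8.67 in HL60 DMSO, and 8.66 in THP-1 PMA and 8.53 in THP-1 DMSO (-1.71 ± 0.43, limma adjusted p = 0.0231), a call lost without HL60 PMA 1, HL60 PMA 2 or THP-1 PMA 1 (limma adjusted p = 0.0544, 0.0586 and 0.0581). Of 19 NF-kappaB subunits and feedback genes, 2 differed upward (CD83 and TNIP1), 1 without HL60 PMA 2 and 6 under the block, with none downward by limma or at an unadjusted p under 0.05.

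Of 21 matrix proteases and inhibitors, 4 differed upward (MMP7, SERPINB2, TIMP1 and MMP19) and 7 downward (MMP1, MMP8, MMP12, PLAU, MMP2, MMP9 and PLAUR), with a median of -0.65. The PMA effect was thus larger in HL60 for the inhibitors SERPINB2 and TIMP1, and lower there for the plasminogen activator PLAU and its receptor PLAUR. PLAU fell by 1.67 in HL60 and rose by 0.92 in THP-1. Of 19 integrins, 5 differed upward (ITGA7, ITGA5, ITGAX, ITGB8 and ITGAE) and 3 downward (ITGB5, ITGA4 and ITGA9). ITGB5, a vitronectin receptor subunit, averaged 5.96 in HL60 PMA and 5.34 in HL60 DMSO, and 10.67 in THP-1 PMA and 6.53 in THP-1 DMSO (-3.52 ± 0.21, limma adjusted p = 3.33e-06). ITGA4, a VCAM1 receptor subunit, averaged 6.60 in HL60 PMA and 9.64 in HL60 DMSO, and 8.20 in THP-1 PMA and 8.71 in THP-1 DMSO (-2.53 ± 0.35, limma adjusted p = 0.00085). Its THP-1 change was not called, but was under the block (-0.51, limma adjusted p = 0.0486).

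Granule proteins fell in both lines. Of 14, 11 fell in HL60 and 10 in THP-1. None differed upward (limma), or 0 at an unadjusted p under 0.05, and 5 differed downward (MPO, SERPINB10, PRG2, CFD and ELANE), with a median of -0.59. Under the block 1 differed upward and 6 downward. The downward count was 4 without HL60 DMSO 2, HL60 PMA 1, HL60 PMA 3, THP-1 PMA 1 or any THP-1 DMSO array. MPO read 6.94, 6.73 and 6.48 in HL60 PMA, against 12.54, 12.72 and 12.55 in HL60 DMSO, and 5.38, 4.84 and 4.94 in THP-1 PMA, against 6.05, 5.94 and 5.62 in THP-1 DMSO. MPO lay near the floor in THP-1 with either agent (-5.07 ± 0.25, limma adjusted p = 8.11e-07). SERPINB10, a serpin of myeloid progenitors, fell by 6.47 ± 0.20 in HL60 and 2.70 ± 0.20 in THP-1, to 3.70 in HL60 PMA and 3.58 in THP-1 PMA. The PRG2 value is uncertain, since only 15 of its 35 probe sets had the sign of the gene's difference.

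Most cell cycle genes fell in both lines, and in most of them a difference between the lines was not called. Of 31 DNA replication genes, 30 fell in HL60 (median -2.37) and 27 in THP-1 (median -1.40), and 10 differed downward, with a median difference of -0.86. TYMS, thymidylate synthase, averaged 7.38 in HL60 PMA and 10.48 in HL60 DMSO, and 9.54 in THP-1 PMA and 10.74 in THP-1 DMSO (-1.91 ± 0.38, limma adjusted p = 0.00729). Of 29 mitotic genes, 26 fell in HL60 (median -3.11) and 28 in THP-1 (median -2.08), 10 differed downward and 2 upward, with a median of -0.89. TOP2A, topoisomerase II alpha, averaged 4.45 in HL60 PMA and 9.44 in HL60 DMSO, and 6.86 in THP-1 PMA and 9.77 in THP-1 DMSO (-2.08 ± 0.43, limma adjusted p = 0.00892). The 2 exceptions were CDC20 and NCAPH. CDC20, the mitotic activator of the anaphase-promoting complex, averaged 9.41 in HL60 PMA and 9.35 in HL60 DMSO, and 9.47 in THP-1 PMA and 11.46 in THP-1 DMSO (2.06 ± 0.27, limma adjusted p = 0.000582). Downward calls for replication were 6 without HL60 PMA 2 or THP-1 PMA 2 and 15 under the block. For mitosis they were 4 without HL60 DMSO 1 or HL60 PMA 2, 5 without HL60 DMSO 2 or HL60 PMA 1, 6 without THP-1 DMSO 1, 13 under the block and 17 after quantile normalization of the 12 arrays or centring.

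The CDK inhibitor CDKN1A rose by 3.79 ± 0.13 in HL60 and 3.17 ± 0.13 in THP-1, and a difference was not called (0.62 ± 0.19, limma adjusted p = 0.0574), though it was under the block (limma adjusted p = 0.0307), without HL60 DMSO 3 or THP-1 DMSO 1 (limma adjusted p = 0.028 and 0.0439) and with the median of the probe sets, where it was 1.61 (limma adjusted p = 0.00346). The proliferation factor MYC fell by 1.93 ± 0.34 in HL60 and 1.05 ± 0.34 in THP-1 (-0.89 ± 0.48, limma adjusted p = 0.319), and the block called this difference too (limma adjusted p = 0.016). MYB, a progenitor factor, averaged 5.29 in HL60 PMA and 10.76 in HL60 DMSO, and 7.89 in THP-1 PMA and 10.83 in THP-1 DMSO (-2.53 ± 0.52, limma adjusted p = 0.00838). Of 23 AP-1 and immediate early factors, 5 differed upward and 2 downward. EGR2 rose by 6.01 ± 0.21 in HL60 and 3.03 ± 0.21 in THP-1, JUN by 4.52 ± 0.21 in HL60 and 2.94 ± 0.21 in THP-1, while MAF, a factor of resident macrophages, rose by 1.12 ± 0.11 in HL60 and 2.82 ± 0.11 in THP-1. SPP1, the secreted protein osteopontin, rose by 6.31 ± 0.36 in HL60 and 8.38 ± 0.36 in THP-1 (-2.07 ± 0.51, limma adjusted p = 0.0213), a call lost on leaving out any of 5 of the 12 arrays (limma adjusted p up to 0.0585).

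Of 26 myeloid lineage transcription factors, 4 differed upward (CEBPB, TAL1, CEBPD and MITF) and 3 downward (MYB, ID3 and ETS1), and after quantile normalization of the 12 arrays 1 differed upward and 4 downward. CEBPB, a factor of macrophage activation, averaged 9.71 in HL60 PMA and 7.37 in HL60 DMSO, and 7.84 in THP-1 PMA and 7.02 in THP-1 DMSO (1.52 ± 0.21, limma adjusted p = 0.00085). ID3, an inhibitor of basic helix-loop-helix factors, averaged 5.81 in HL60 PMA and 5.23 in HL60 DMSO, and 9.17 in THP-1 PMA and 6.35 in THP-1 DMSO (-2.25 ± 0.32, limma adjusted p = 0.000984). ETS1 rose by 1.04 ± 0.19 in HL60 and 2.58 ± 0.19 in THP-1. Of 13 HOXA and MEIS leukaemia factors, 2 differed upward (HOXA5 and PBX3) and none downward by limma or at an unadjusted p under 0.05. HOXA5 read 7.41, 7.48 and 7.28 in HL60 PMA, against 4.97, 5.50 and 5.13 in HL60 DMSO, and 5.34, 5.94 and 6.39 in THP-1 PMA, against 5.50, 5.84 and 5.47 in THP-1 DMSO. It was clear of its DMSO arrays in HL60 and overlapped them in THP-1 (1.91 ± 0.34, limma adjusted p = 0.00345). PBX3, a HOX cofactor, rose by 0.46 ± 0.14 in HL60 and fell by 0.83 ± 0.14 in THP-1 (1.29 ± 0.20, limma adjusted p = 0.00149).

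Cholesterol synthesis was the metabolic list with the widest separation. Of 18 genes, 9 rose and 2 fell in HL60, and 2 rose and 1 fell in THP-1. Differences were upward in 8 and downward in 1, LSS, and the list median was 0.95. STARD4, a sterol carrier, averaged 9.12 in HL60 PMA and 6.51 in HL60 DMSO, and 7.58 in THP-1 PMA and 7.43 in THP-1 DMSO (2.47 ± 0.25, limma adjusted p = 0.000106). MSMO1, a sterol demethylase, rose by 2.92 ± 0.24 in HL60 and 1.03 ± 0.24 in THP-1. HMGCS1, which supplies the pathway, differed by 1.84 ± 0.51 (limma adjusted p = 0.0381), a call lost on leaving out any of 8 of the 12 arrays (limma adjusted p up to 0.0952). The upward count fell from 8 to 5 without HL60 DMSO 2, HL60 DMSO 3, HL60 PMA 2, THP-1 DMSO 1, THP-1 DMSO 2 or THP-1 PMA 1. Of 23 oxidative phosphorylation genes none passed limma's test of the difference, and 0 did at an unadjusted p under 0.05, while 2 were called upward with the block. Of 18 ribosome biogenesis genes none passed it, 1 did at an unadjusted p under 0.05, and 2 were called downward with the block.

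Of 22 glycolysis genes, FBP1 included, 3 differed upward and none downward (limma), or 1 downward at an unadjusted p under 0.05. Under the block 5 differed upward and 1 downward, and after quantile normalization of the 12 arrays 3 differed upward and 1 downward. ENO2, an enolase, averaged 7.82 in HL60 PMA and 4.69 in HL60 DMSO, and 5.43 in THP-1 PMA and 4.68 in THP-1 DMSO (2.39 ± 0.23, limma adjusted p = 8.66e-05). PFKFB4, which sets fructose 2,6-bisphosphate, rose by 2.75 ± 0.15 in HL60 and 1.60 ± 0.15 in THP-1. Of 20 p53 target genes, 1 differed upward (XPC) and 3 downward (GDF15, FAS and TP53INP1). The death receptor FAS fell by 1.38 ± 0.21 in HL60, and its THP-1 change of -0.03 was not called. The GDF15 and TP53INP1 calls were each lost on leaving out any of 9 of the 12 arrays, with adjusted p up to 0.0842 and 0.11 (limma).

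Markers of other cell types were counted against the 12.6% called over all genes. Of 13 epithelial and fibroblast markers none differed by limma or at an unadjusted p under 0.05. Of 12 erythroid and megakaryocyte markers 1 differed upward, TAL1, and none did after quantile normalization of the 12 arrays. Of 14 dendritic cell and osteoclast markers, 2 differed upward (DCSTAMP and LAMP3) and 3 downward (ATP6V0D2, SPP1 and NFATC1), or 35.7% in all. ATP6V0D2, a proton pump subunit of osteoclasts, averaged 3.97 in HL60 PMA and 3.02 in HL60 DMSO, and 6.82 in THP-1 PMA and 3.00 in THP-1 DMSO (-2.87 ± 0.53, limma adjusted p = 0.00475). With only probe sets above the floor its difference was -1.14 (limma adjusted p = 0.0579).

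Among 23 protein kinase C and diacylglycerol-sensing genes, the targets of PMA and their partners, 6 differed upward and 2 downward, with a median of 0.44. PRKCB, protein kinase C beta, averaged 9.45 in HL60 PMA and 8.58 in HL60 DMSO, and 7.76 in THP-1 PMA and 8.84 in THP-1 DMSO, so it rose in HL60 and fell in THP-1 (1.96 ± 0.21, limma adjusted p = 0.000159). RASGRP1, a Ras activator that binds diacylglycerol, averaged 6.26 in HL60 PMA and 4.01 in HL60 DMSO, and 3.58 in THP-1 PMA and 3.68 in THP-1 DMSO (2.35 ± 0.25, limma adjusted p = 0.000133). With only probe sets above the floor its difference was 0.73 (limma adjusted p = 0.262). DGKA, which removes diacylglycerol, rose by 1.42 ± 0.14 in HL60, and its THP-1 change of -0.25 was not called.

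**Figure D4:**
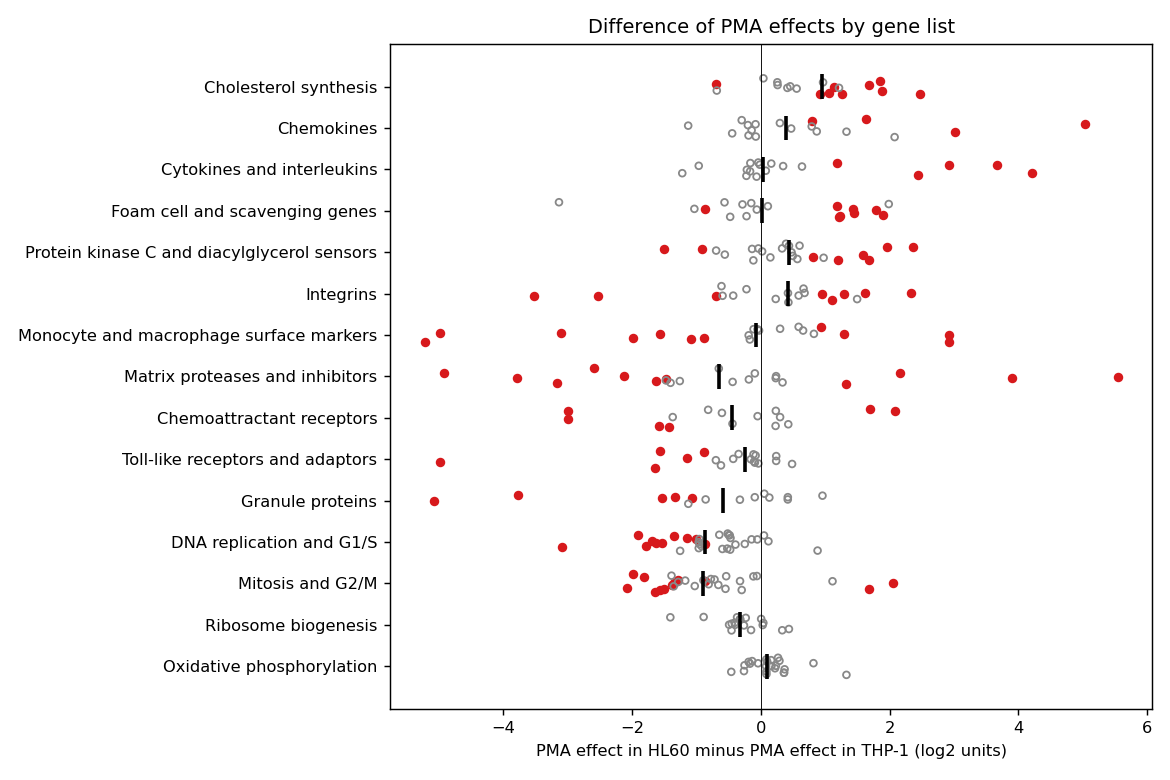
Each point is the difference of PMA effects, HL60 minus THP-1, of a gene in 15 lists, in log2 units. Filled points passed limma's test at an adjusted p under 0.05, open points did not, and the bars are list medians. The median was 0.95 for cholesterol synthesis and -0.89 for mitosis, and no filled point occurs for ribosome biogenesis or oxidative phosphorylation.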

How the data were processed

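Total RNA of 18 samples was measured on Affymetrix human exon arrays, processed with Expression Console, version not stated, per the submitters' processing notes. The deposited values are log2 exon-level probe-set values, with a background correction, a normalization and a summary method not given in the sources used here. They were used as deposited. Of 287329 probe sets, 261273 had 1 gene symbol in the platform annotation, 9155 several and 16901 none. Of 16941 symbols, 14546 were current in RefSeq (GRCh38.p14, for names and promoter sequences), 2260 were updated and 135 kept. Probe sets were averaged per gene (median 13). No depth exists for arrays, and their number limits the precision.

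The 12 arrays were fitted as 4 group means with limma 3.58.1 in R 4.3.3 (package data.table, version 1.17.8), with 8 residual and 10.82 total degrees of freedom. The median SE was 0.171 for an effect and 0.241 for a difference. P-values were two-sided and adjusted over all 16267 genes. Differences of at least 1 log2 unit numbered 1381, 902 of them above 0. On simulated data of 16267 genes this fit recovered 42 of 100 differences of 1 log2 unit and 82 of 100 of 2 log2 units. Of its 132 calls there 8 were false. Apart from these differences, each simulated gene had the same mean in all arrays and independent normal noise, without a pairing by number. Far fewer genes differed there than the 2052 called in the data, and the adjusted p depends on that number. The recovered shares therefore do not give the sensitivity of the fit to the real data.

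The labels' replicate numbers were checked within each line. Deviations from the group means correlated between PMA and DMSO arrays of the same number at 0.79, 0.48 and 0.58 in HL60 and 0.40, 0.64 and 0.65 in THP-1. The highest correlations with another number were -0.44, 0.38 and 0.23 in HL60 and 0.05, 0.44 and -0.5 in THP-1. The numbers may thus pair the samples, which the labels do not state. Results not said to use the block, classes included, left a pairing out. As an alternative, a fit with the number as a block called 3589 differences, against 2052.

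Members and lists were chosen with earlier results of these data known. Genes named for their class had PMA arrays clear of DMSO arrays in each line that moved. They were the 10 widest differences per opposite class, 7 per one-line class and 4 per direction among genes moving the same way. Without that requirement, up to 3 genes per list with the widest called differences were named, and CD14, MPO, CDKN1A, ITGAM, MYC and SPP1. Genes with placeholder symbols were not named. Members of list counts outside this rule were named after their values were seen. Alternatives changed the arrays fitted, the normalization, the gene summary, the filters, the variance model and the size of a move.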

Additional observations from a re-analysis of the deposited data

Results flagged for a closer look

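The comparison itself tests whether the PMA effect differs between the lines, so each called gene meets that condition, and the counts are collected here with the widest opposite changes. Differences passed limma's test above 0 in 1350 genes and below 0 in 702. In 15 genes HL60 rose and THP-1 fell, and in 10 HL60 fell and THP-1 rose. Gains were seen in HL60 alone for 347 genes and in THP-1 alone for 199, and losses in HL60 alone for 90 and in THP-1 alone for 183.

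The largest differences above 0 among genes of opposite direction were 6.10 for FBP1, 4.40 for ADGRL3, 4.27 for DHRS9, 3.89 for SERPINB2, 3.74 for CTSV, 3.30 for CA2, 3.25 for LILRB4, 3.11 for PIR, 3.07 for SEPTIN3 and 3.04 for FBXO15. Those below 0 were -4.98 for CD14, -4.64 for ITM2C, -4.32 for TENT5C, -3.78 for MMP8, -3.49 for TESC, -3.35 for NT5DC2, -3.15 for GYPC, -2.81 for GNA15, -2.68 for TRAF3IP3 and -2.53 for CORO1A.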

How the results depend on the processing

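With the replicate number as a block, which takes a pairing by number into account, the differences above 0 numbered 2334 and those below 0 numbered 1255. The block ended no called difference of a named gene and added CDKN1A and MYC. All 25 opposite genes stayed in their class with the block (15 and 10), as did 279 of 347, 168 of 199, 71 of 90 and 165 of 183 one-line genes, in the order gained in HL60, gained in THP-1, lost in HL60 and lost in THP-1. With all 18 arrays in the fit, differences above 0 numbered 794. Among genes above the floor, 108 were lost in THP-1 alone. With moves of at least 2 log2 units, 104 genes were gained in HL60 alone, 57 gained in THP-1 alone, 20 lost in HL60 alone and 27 lost in THP-1 alone. The floor was also set at the 50th percentile (6.53). The HL60 DMSO level then lay above it in 3 of the genes rising in HL60 and falling in THP-1. The line's own DMSO level did so in 114 gained in HL60 alone, 42 gained in THP-1 alone and 109 lost in THP-1 alone. Over all 16267 genes, 7442 lay above it in HL60 DMSO and 7797 in THP-1 DMSO.

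Leaving out each array in turn gave 947 to 1484 differences above 0, 516 to 701 below 0, 10 to 22 genes rising in HL60 and falling in THP-1, 8 to 12 with the reverse pattern, 314 to 377 gained in HL60 alone, 182 to 212 gained in THP-1 alone, 72 to 116 lost in HL60 alone and 113 to 267 lost in THP-1 alone. The lowest was without THP-1 DMSO 2 for the differences above 0 and for the genes lost in THP-1 alone, and without THP-1 DMSO 1 for the genes rising in HL60 and falling in THP-1. Of 116 named genes, 101 kept their side of the threshold when any array was left out, 94 under each other alternative and 91 under both kinds, and none of them changed sign. The difference of OLR1 missed the threshold with the median of the probe sets (limma adjusted p = 0.0522), as did SPP1 (0.0764) and IL18 (0.124), and that of MSMO1 with all 18 arrays (0.0711). The causes were not tested. Levels under the floor of 5.13 lie close to background, which limits the size of both gains and losses there. With array values under it set to it, differences shrank by over 1.5 times for CTSV (2.46), MEIOB (1.83), RASGRP1 (1.13), IFIT3 (0.93), FBXO15 (0.32), IFIT2 (0.18), ANKRD22 (-2.23), ATP6V0D2 (-1.69), CD163 (-1.68), C3AR1 (-1.62), ANLN (-1.07), FAS (-0.42), TLR8 (-0.27) and MMP8 (-0.23). With quantile normalization of the 12 arrays, genes gained alone numbered 308 in HL60 and 250 in THP-1, and those lost alone 119 in HL60 and 145 in THP-1.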

Other observations

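U937, the other line of the series, a histiocytic lymphoma line of monocytic character, was given the same treatment, with 3 PMA and 3 DMSO arrays. Its PMA effects from the fit of all 18 arrays are set beside the 25 genes of opposite direction as values. Of the 15 genes that rose in HL60 and fell in THP-1, U937 raised 2, lowered 3 and left 10 uncalled by limma. Without the U937 arrays numbered 2, which stand apart from the others, it raised 4, lowered 0 and left 11 uncalled. Of the 10 genes with the reverse pattern U937 raised 2, lowered 2 and left 6 uncalled, or 2, 1 and 7 without those arrays.

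CD14 rose by 1.46 ± 0.24 in U937 (limma adjusted p = 0.000264), in the direction of THP-1. MMP8 rose by 3.50 ± 0.53 (limma adjusted p = 0.000113), also as in THP-1. FCGR2A rose by 1.74 ± 0.32 (limma adjusted p = 0.000692) and SERPINB2 by 1.05 ± 0.32 (limma adjusted p = 0.026), in the direction of HL60. TENT5C fell by 1.71 ± 0.28 (limma adjusted p = 0.000257), as in HL60. FBP1 changed by 0.68 ± 0.36, which was not called (limma adjusted p = 0.223), and by 1.09 without the arrays numbered 2 (limma adjusted p = 0.0435). No single direction thus held for U937 across these genes.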
